A study of Mus musculus with 6 samples.

Results

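The unfolded protein response and endoplasmic reticulum (ER) chaperone genes are 32 of the 24421 gene symbols counted in this RNA-sequencing series. They were chosen by symbol from a list of ER chaperones, disulfide isomerases, degradation factors, stress sensors and the targets of those sensors. All 32 had a row in the counts, and 31 had enough reads to be tested. The RNA came from cells flow sorted as endothelial out of B16F0 melanomas, a transplantable mouse tumour grown under the skin of C57BL/6 mice. Melanocyte markers were nevertheless abundant in every library, as given below. Tumours grew for 17 days. One group of mice received 15C4, an antibody that blocks LRG1, a secreted glycoprotein, and the other received IgG as the control, both at 50 mg/kg every 3 days. Each group has 3 libraries, called 15C4 1 to 3 and IgG 1 to 3, and the comparison asks how the antibody alters gene expression in tumour endothelium. Whether each library is a separate animal or a pool is not stated in the labels, so p-values reflect the spread among these libraries alone, and that spread may be technical.

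The unfolded protein response is the programme by which a cell matches the folding capacity of its ER to the load of secreted and membrane proteins. Its 3 sensors sit in the ER membrane. ATF6, the product of Atf6, is released by cleavage as a transcription factor. IRE1, the product of Ern1, splices Xbp1 mRNA so that an active factor is made. PERK, the product of Eif2ak3, slows translation and favours synthesis of ATF4, which induces CHOP (Ddit3) and amino acid genes. In tumours the response is known to be engaged by hypoxia, nutrient shortage and a high secretory load, and in endothelium it is known to be triggered also by growth factor signalling. Counts per gene do not separate spliced from unspliced Xbp1 and do not measure cleavage, phosphorylation or protein.

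The libraries held between 5175600 and 19572202 counts and between 10413 and 13707 genes with a count. 15C4 3 had the fewest detected genes, and its 12 immediate early genes of dissociation stress (RNA handling) summed to 307 CPM (counts scaled to the library total), against 663 to 2109 CPM in the other libraries. The 13 melanocyte markers were all detected and summed to between 25040.2 and 29254 CPM in 15C4 and between 25561 and 29779 CPM in IgG. The 22 pan-endothelial markers, also all detected, summed to between 1828 and 3583 CPM in 15C4 and between 231 and 2920.4 CPM in IgG, where the lowest value was that of IgG 3. Melanocyte transcripts thus exceeded endothelial ones between 6.99-fold and 111-fold in every library. The cells of origin of the ubiquitous ER genes described here cannot be told apart, and in such bulk libraries neither can fewer cells of a type and less RNA per cell. Markers of plasma cells, whose ER is very large, were near 0: Mzb1 had 0 counts in every library, Jchain had 2 counts in IgG 1 and 0 elsewhere, and the 8 B and plasma cell markers summed to between 1.56 and 6.18 CPM in 15C4 and between 6.18 and 18.9 CPM in IgG. Those of T and NK cells (11 of 12 genes detected, Cd4 at 0) reached 220.3 CPM in 15C4 1, 595 CPM in IgG 1 and no more than 21.7 CPM elsewhere. Lymphatic endothelial markers (6 of 7 detected, Ccl21a at 0) lay between 31.4 and 63.8 CPM in every 15C4 library, against 47.5, 1168 and 11.6 CPM in IgG 1 to 3. Fibroblast markers (8 of 8 detected) summed to 155 CPM in 15C4 3, 94.7 CPM in IgG 1 and at most 7.47 CPM elsewhere. Macrophage and monocyte markers (13 of 13 detected) summed to between 0.469 and 76.5 CPM in 15C4 and between 17.9 and 203 CPM in IgG, highest in IgG 1. The part of these differences in the results below was not tested.

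What some members share is a DNA element near the start of transcription. The ER stress response element (ERSE) is the letters CCAAT, any 9 bases, then CCACG, and is bound by ATF6 together with NF-Y. A shorter form, ERSE-II, is ATTGG, any 1 base, then CCACG. The amino acid response element of ATF4 target genes, called CARE, was searched as TGATGNAA. RefSeq promoter windows on GRCm38.p6, from 250 bases before to 50 bases after the start, were held for 28 of the 32 members (29 windows). They were searched on both strands, and only exact matches to these letters were counted. ERSE occurred in windows of 9 of these 28 members, against 39 of all 32851 windows (0.119%). ERSE-II occurred in 2 members and in 0.0365% of all windows, and CARE in 4 members and in 3.97% of all windows. The element was first described in genes of this family, so its frequency here is a description of the family and not a result of the antibody comparison. The sites are shown because they mark which members can be grouped by sequence, with the fixed letters in capitals and each site written 5′ to 3′ on the strand that reads CCAAT first:
Hspa5: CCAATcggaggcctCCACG
Hsp90b1, upstream site: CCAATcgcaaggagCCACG
Hsp90b1, downstream site: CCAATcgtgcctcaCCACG
Calr: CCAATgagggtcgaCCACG
Canx: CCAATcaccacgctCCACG
Pdia6: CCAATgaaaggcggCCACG
Dnajc3: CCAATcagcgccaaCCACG
Creld2: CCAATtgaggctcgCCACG
Syvn1: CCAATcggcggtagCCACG
Derl3: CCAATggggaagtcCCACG

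On GRCm38.p6 these sites lie at chr2:34772025-34772043 (Hspa5, plus strand), chr10:86705638-86705656 (Hsp90b1, minus strand), chr10:86705533-86705551 (Hsp90b1, plus strand), chr8:84847075-84847093 (Calr, plus strand), chr11:50325800-50325818 (Canx, minus strand), chr12:17266491-17266509 (Pdia6, plus strand), chr14:118937827-118937845 (Dnajc3, plus strand), chr15:88819520-88819538 (Creld2, minus strand), chr19:6046532-6046550 (Syvn1, plus strand), chr10:75893242-75893260 (Derl3, minus strand). The sites of Calr, Creld2 and Derl3 and one of the pair in Hsp90b1 run against the direction of the gene, and no match overlaps one of another motif. The members that hold an ERSE are chaperones (Hspa5, Hsp90b1, Calr, Canx), an isomerase (Pdia6), luminal co-factors (Dnajc3, Creld2) and degradation factors (Syvn1, Derl3). No ERSE match was found in the windows of the sensors Ern1 and Eif2ak3 or of Atf4 and its targets. The windows of Pdia3, Pdia4, P4hb, Dnajb9, Dnajb11, Sdf2l1, Herpud1, Sel1l, Edem1, Derl2, Xbp1 and Ddit3 also held none. Hyou1, Manf, Derl1 and Atf6 had no window and were not searched.

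The ERSE-II and CARE matches are shown beside each other because Herpud1, the member with the smallest p in the comparison below, holds one of each:
Dnajb11, ERSE-II: ATTGGcCCACG
Herpud1, ERSE-II: ATTGGgCCACG
Asns, CARE: TGATGaAA
Chac1, CARE: TGATGcAA
Herpud1, CARE: TGATGcAA
Trib3, CARE: TGATGtAA

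In the windows of Herpud1, Hspa5 and Hsp90b1, printed whole because Herpud1 had the smallest p of the members, Hspa5 encodes BiP and Hsp90b1 was the most abundant member and holds 2 ERSE matches, capitals mark every match on either strand. They lie at chr8:94386179-94386478 (Herpud1, plus strand), chr2:34771840-34772139 (Hspa5, plus strand), chr10:86705395-86705694 (Hsp90b1, minus strand) on GRCm38.p6.
Herpud1: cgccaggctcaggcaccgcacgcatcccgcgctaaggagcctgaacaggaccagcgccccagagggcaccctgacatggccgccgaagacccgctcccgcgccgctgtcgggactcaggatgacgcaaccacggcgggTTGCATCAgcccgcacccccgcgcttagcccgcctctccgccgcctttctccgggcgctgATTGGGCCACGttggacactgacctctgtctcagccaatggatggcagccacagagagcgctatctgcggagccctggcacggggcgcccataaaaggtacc
Hspa5: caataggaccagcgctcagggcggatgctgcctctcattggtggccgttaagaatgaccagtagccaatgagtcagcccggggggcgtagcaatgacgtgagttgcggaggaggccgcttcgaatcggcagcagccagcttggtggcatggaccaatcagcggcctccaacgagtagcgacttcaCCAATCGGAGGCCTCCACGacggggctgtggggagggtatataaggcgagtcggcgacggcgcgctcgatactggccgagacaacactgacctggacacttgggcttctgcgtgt
Hsp90b1: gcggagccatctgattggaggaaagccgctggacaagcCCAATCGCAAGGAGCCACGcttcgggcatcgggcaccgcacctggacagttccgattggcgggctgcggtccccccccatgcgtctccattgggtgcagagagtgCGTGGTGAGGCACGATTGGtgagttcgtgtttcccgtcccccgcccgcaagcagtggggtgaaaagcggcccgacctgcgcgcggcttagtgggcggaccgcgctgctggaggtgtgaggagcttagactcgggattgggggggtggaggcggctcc

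The matches in Herpud1 begin 112 bases (CARE) and 52 bases (ERSE-II) upstream of the start, that of Hspa5 begins 65 bases upstream, and those of Hsp90b1 begin 212 and 107 bases upstream.

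**Figure D1:**
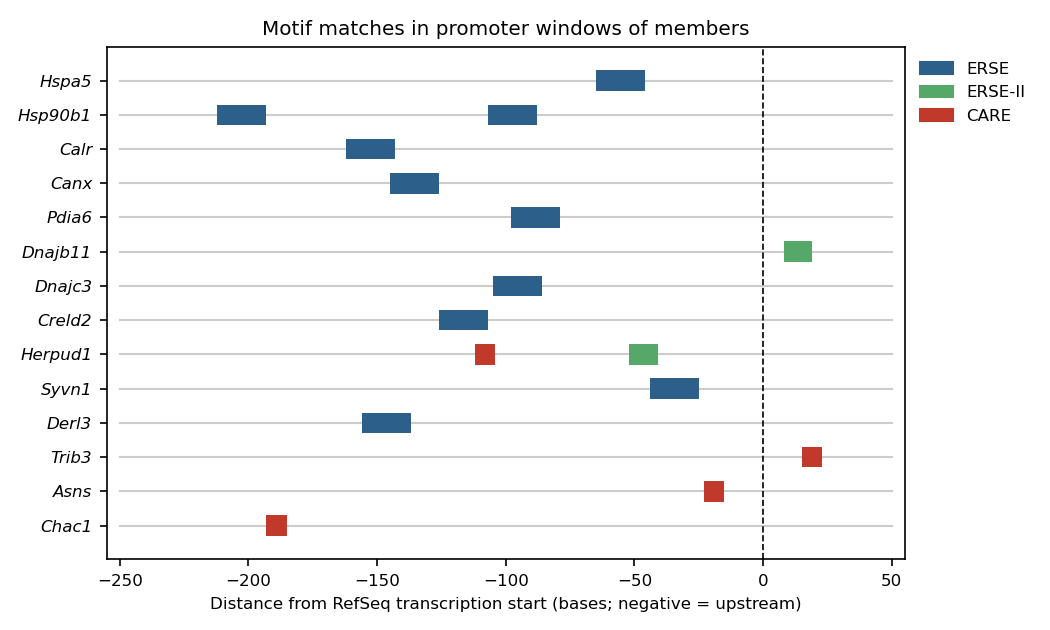
Positions of ERSE (blue), ERSE-II (green) and CARE (red) matches in the promoter windows of the members that hold at least 1 match, against the distance from the RefSeq transcription start in bases. ERSE matches lie between 212 and 26 bases upstream, while the matches of Dnajb11 and Trib3 lie downstream of the start.

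Levels between genes were compared per kilobase of exon (CPM per kb, over the 6 libraries, using GENCODE M21 exons). The most abundant members were Hsp90b1, which encodes the ER HSP90 protein GRP94, at 555 ± 219 CPM per kb, and Canx, which encodes the membrane lectin chaperone calnexin, at 550.0 ± 176 CPM per kb (SD, n = 6 libraries each). The disulfide isomerase gene Pdia3 was at 329 ± 77.2 and Hspa5, which encodes the HSP70 chaperone BiP, at 328 ± 85.3 CPM per kb. P4hb, for protein disulfide isomerase itself, was at 222 ± 68.4 CPM per kb and Atf4 at 138 ± 24.3 CPM per kb. Hsp90b1 and Canx, and likewise Pdia3 and Hspa5, differed by less than their spread between libraries, while the steps below Canx, Hspa5 and P4hb were larger than the SD of either neighbour. At the other end, Hyou1, for the large HSP70-like exchange factor GRP170, was at 0.947 CPM per kb and Ern1 at 0.940 CPM per kb (range 0.498 to 1.79 and 0 to 3.04). Hyou1 was thus far below its partner Hspa5 in every library. Derl3, a derlin of secretory tissues, had 0 counts in all 6 libraries, which allows at most between 0.153 and 0.580 CPM per library (3 counts; counting error only), although its window holds an ERSE.

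In the comparison of 15C4 with IgG, 0 of the 31 tested members passed the edgeR quasi-likelihood test at a Benjamini-Hochberg adjusted p of 0.05 over all genes (0 of 11144 genes, 0%). The adjusted p was 0.9997 for each of the 31. At an unadjusted p under 0.05 there was 1 member, Herpud1, higher in 15C4, and 0 lower, against 1.26% and 1.33% of all genes (2.58% in either direction). limma-voom and DESeq2 also called 0 members and had 1 member each at the unadjusted threshold, which 4.15% of all genes passed by DESeq2 and 4.14% by limma-voom. DESeq2 called 26 genes in all (0.252%) and limma-voom 0 (0%). On simulated counts with the dispersion of these libraries, 10639 genes were tested. edgeR called 0 of 50 genes given a 2-fold change, 6 of 50 given a 4-fold change and 34 of 50 given a 16-fold change. Calls among genes given no change were 3 by edgeR, 59 by DESeq2 and 1 by limma-voom. The changed genes were drawn at random from the well-counted genes, not from the members. How large a change was detectable in the members was therefore not tested.

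The fitted log2 fold change, 15C4 over IgG, was above 0 for 24 of 31 members, against 50.7% of all tested genes, with a median of 0.29 against 0.01 over all tested genes. Scaled to library totals alone the count was 20, and it was 17, with a median of 0.12, without 15C4 3 and IgG 3. By limma-voom 22 members were above 0, with a median of 0.09, where the median over all genes was -0.14. The members were measured in the same 6 libraries, so the count has no test here.

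**Figure D2:**
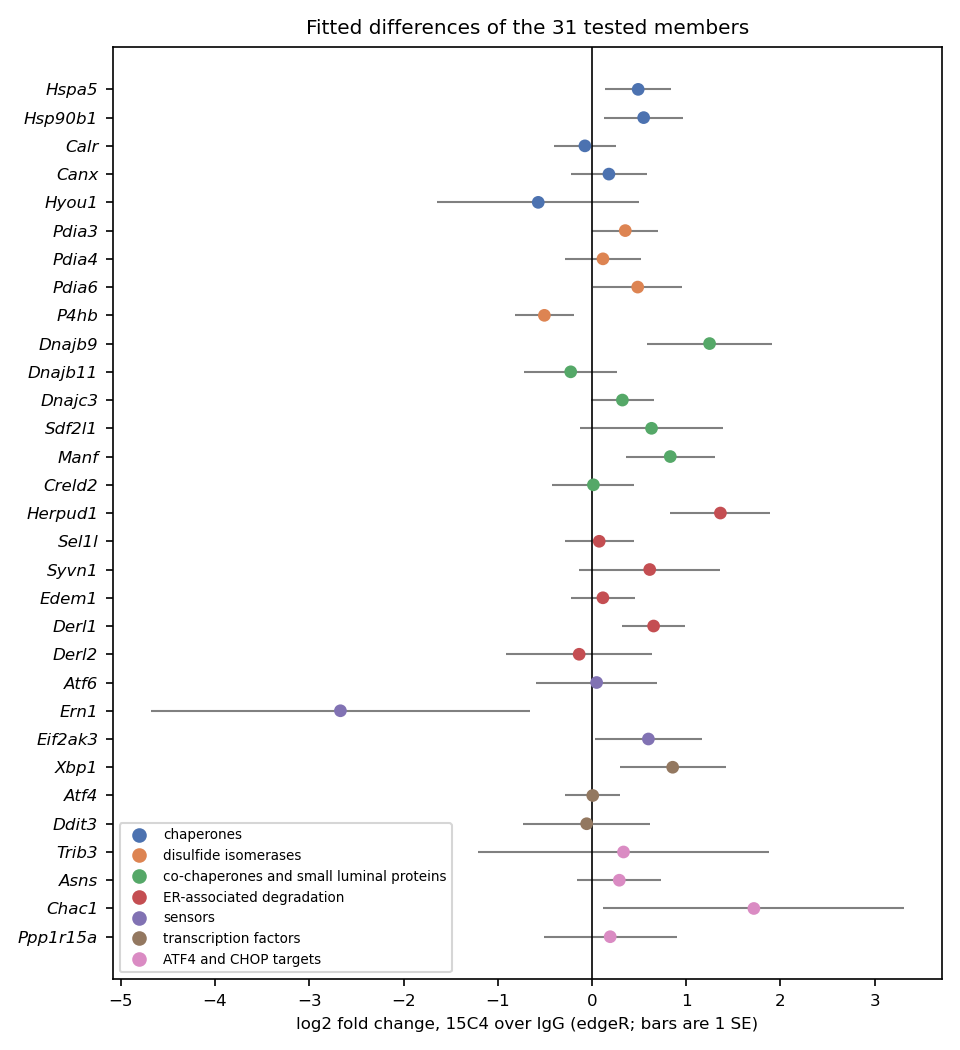
Fitted log2 fold change, 15C4 over IgG, of each of the 31 tested members with 1 SE (edgeR, all 6 libraries), coloured by role. Herpud1, at 1.36, lies farthest from 0 relative to its SE, Ern1 has the widest bar, and the chaperones and isomerases lie between -0.57 and 0.55.

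Among the chaperones, 3 of 5 were fitted above 0 and 0 passed. Hspa5 (GRCm38 chromosome 2, 34771970 to 34777547), whose protein BiP also holds the sensors inactive, was at 1193, 1736 and 1778 CPM in 15C4 1 to 3, against 1555, 1201 and 862 CPM in IgG 1 to 3. The groups overlapped, with 15C4 1 below the upper pair of IgG libraries and IgG 3 below all others. The log2 fold change was 0.49 (SE 0.35), and between 0.32 and 0.72 with each library left out. Hsp90b1 was at 1501, 2271 and 3901 CPM in 15C4, against 2343, 1718 and 1681 CPM in IgG. Only 15C4 3 stood above the highest IgG library, and the fold change of 0.55 (SE 0.42) was 0.03 without 15C4 3. Canx was at 2112, 1706 and 4085 CPM in 15C4, against 2816, 2258 and 2510.1 CPM in IgG. Here too 15C4 3 was high and the other 15C4 libraries lay below all IgG libraries: the fold change was 0.18 (SE 0.40), and -0.38 without 15C4 3. Calr, for the luminal lectin calreticulin, went the other way within these libraries, with its lowest value, 232 CPM, in 15C4 3 and values between 316 and 435 CPM elsewhere. Hyou1 ranged from 3.60 to 13.0 CPM.

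Disulfide isomerases form and rearrange the disulfide bonds of secreted proteins; 3 of 4 were fitted above 0 and 0 passed. Pdia3, the isomerase that works with calnexin and calreticulin, was at 773, 1121 and 1452 CPM in 15C4, against 979, 834 and 1029 CPM in IgG (a log2 fold change of 0.35, SE 0.35, or 0.05 without 15C4 3). Pdia6 was at 219, 422 and 709.6 CPM in 15C4, against 422, 334 and 306 CPM in IgG (0.49, SE 0.47, or -0.08 without 15C4 3). In both genes 15C4 1 was the lowest library and 15C4 3 the highest. P4hb was the exception, at 574, 595 and 354 CPM in 15C4, against 578, 919.9 and 787 CPM in IgG, with a fold change of -0.51 (SE 0.32). Its lowest value was that of 15C4 3, and the groups overlapped through IgG 1. P4hb also serves as a subunit of collagen prolyl hydroxylase. Pdia4 ranged from 160.2 to 325 CPM, with its extremes in 15C4 1 and 15C4 3.

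The co-chaperones and small luminal proteins had 5 of 6 members fitted above 0, and 0 passed. Dnajb9, for the BiP co-chaperone ERdj4 and a target of XBP1, was at 32.7, 155 and 79.5 CPM in 15C4, against 49.5, 22.9 and 49.5 CPM in IgG. 15C4 2 and 15C4 3 lay above every IgG library and 15C4 1 did not (log2 fold change 1.25, SE 0.67, or 0.60 without 15C4 2). Manf, for a secreted ER stress-inducible factor, was at 118, 321 and 339.6 CPM in 15C4, against 179, 139 and 162 CPM in IgG (0.83, SE 0.47, or 0.53 without 15C4 3). Here too 15C4 2 and 15C4 3 lay above every IgG library, while 15C4 1 was the lowest of all. Dnajc3, for the co-chaperone p58IPK that restrains PERK, was at 312, 252 and 313 CPM in 15C4, against 277, 305 and 167 CPM in IgG (0.32, SE 0.34, or 0.13 without IgG 3). Sdf2l1, a BiP cycle component, reached 74.9 CPM in 15C4 3 and lay between 13.7 and 29.4 CPM elsewhere. Dnajb11 ranged from 45.6 to 129 CPM and Creld2 from 54.7 to 74.6 CPM, the narrowest range of the group.

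ER-associated degradation, which draws misfolded proteins back to the cytosol for the proteasome, held both members whose groups did not overlap. Herpud1 (chromosome 8, 94386438 to 94395377), which organises the HRD1 degradation complex and carries the ERSE-II and CARE matches shown above, was at 141, 126 and 119.5 CPM in 15C4, against 78.3, 20.8 and 60.0 CPM in IgG. The 15C4 libraries were close together and all above the IgG libraries, among which IgG 2 was lowest. The means were 129 ± 11.1 CPM in 15C4, against 53.0 ± 29.3 CPM in IgG (SD, n = 3 each). The log2 fold change was 1.36 (SE 0.53). It ranked 184 of 11144 by unadjusted p (0.0319), and the adjusted p was 0.9997 (edgeR). With each library left out in turn the fold change lay between 0.97, without IgG 2, and 1.75, without IgG 1. The largest unadjusted p of Herpud1 in these fits was 0.0632 (edgeR). Without IgG 2 or without IgG 3, 0 members had an unadjusted p under 0.05, against 1 or 3 in the other such fits. Derl1 (chromosome 15, 57869502 to 57892448), for a channel component of this pathway, was at 247, 187 and 242 CPM in 15C4, against 185, 157 and 117 CPM in IgG. The groups were separated by a gap of less than their SD, and the fold change was 0.65 (SE 0.34), with an adjusted p of 0.9997 (edgeR). Groups that did not overlap with 15C4 above made up 2 of the 31 members and 2.88% of all tested genes, and with 15C4 below 0 members and 6.64% of genes.

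The other degradation members did not separate. Sel1l, the adaptor of the HRD1 ligase and the most counted of the group, was at 131, 212 and 228 CPM in 15C4, against 199, 188 and 198 CPM in IgG (a log2 fold change of 0.08, SE 0.36). Its IgG values were tightly grouped and lay inside the 15C4 range. Syvn1, which encodes the HRD1 ligase itself, was at 43.0, 8.74 and 27.7 CPM in 15C4 and between 16.9 and 18.7 CPM in IgG. Edem1, a mannosidase-like lectin, ranged from 128 to 183 CPM. Derl2 was at 10.6 CPM in 15C4 3 and between 52.8 and 124 CPM elsewhere, and its exons overlap those of Mis12 on the opposite strand over 231 bases. Exons of Hsp90b1 overlap those of 1810014B01Rik over 337 bases and those of Ddit3 overlap Mars over 68 bases, also on opposite strands, where reads cannot be told apart if counting ignored strand.

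In the authors' deposited table Herpud1 was the 1 member past an adjusted p of 0.05, with a DESeq2 log2 fold change of -1.41 for IgG over 15C4 and an adjusted p of 0.0444. That is 1 of 31 members with an adjusted p in the authors' deposited table, where 507 of 14112 genes passed (3.59%). Derl1 had a deposited adjusted p of 0.147 and Dnajb9 of 0.259 in the authors' deposited table. Of the 8332 genes with 0 counts in all 6 libraries, 4840 have an overall mean above 0 in the authors' deposited table, so its model used further libraries, which were not analysed here.

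**Figure D3:**
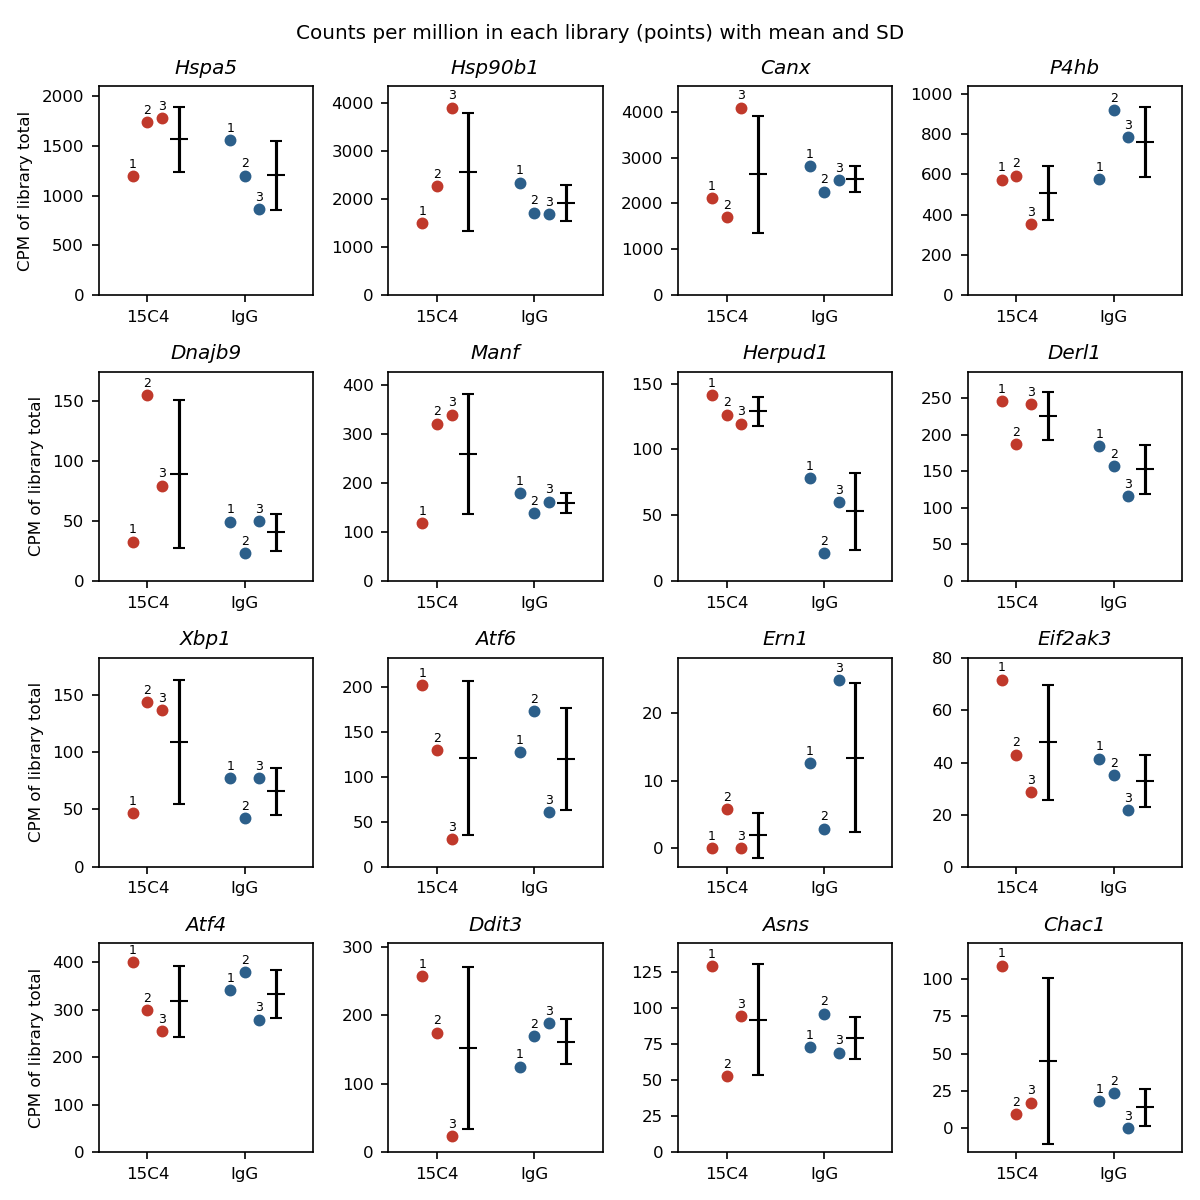
CPM of the library total of 16 members in each library, 15C4 in red left of IgG in blue, with the library number at each point and the group mean and SD in black. Herpud1 and, by a gap of less than its SD, Derl1 separate by group, as 2.88% of all tested genes do with 15C4 above. Hsp90b1 and Canx are set apart by 15C4 3, and Chac1 by 15C4 1.

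The sensors were low and did not pass. Atf6 was at 202, 129 and 30.8 CPM in 15C4, against 127, 172 and 60.2 CPM in IgG. The spread within each group exceeded the difference between them, and the log2 fold change of 0.05 (SE 0.64) lay between -0.45 and 0.50 with each library left out. Ern1 had 0, 113 and 0 counts in 15C4, against 65, 28 and 290 counts in IgG. In CPM this is 0, 5.77 and 0 in 15C4, against 12.6, 2.90 and 24.9 in IgG, so that the groups overlapped through 15C4 2 and IgG 2 (fold change -2.67, SE 2.02). It was -9.79 without 15C4 2, -1.86 without IgG 3, -4.54 by limma-voom and -1.29 without 15C4 3 and IgG 3. The 0 counts allow up to 0.357 CPM in 15C4 1 and 0.469 CPM in 15C4 3 (3 counts). Eif2ak3 was at 71.9, 43.0 and 28.6 CPM in 15C4, against 41.5, 35.3 and 21.8 CPM in IgG (0.60, SE 0.57), with its highest value in 15C4 1, and the fold change was 0.28 without that library.

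The transcription factors varied between libraries within each group, and 0 of 3 passed. Xbp1 was at 46.5, 143 and 137 CPM in 15C4, against 77.3, 42.1 and 77.4 CPM in IgG. As in Dnajb9 and Manf, 15C4 2 and 15C4 3 lay above every IgG library and 15C4 1 did not. The log2 fold change was 0.86 (SE 0.56), and between 0.60 and 1.24 with each library left out. Atf4 was at 399, 299 and 255 CPM in 15C4, against 341, 379 and 279 CPM in IgG (0.01, SE 0.29). The protein of Atf4 is controlled mainly by translation, which these counts do not measure. Ddit3, for the pro-apoptotic factor CHOP, was at 257, 174 and 23.8 CPM in 15C4, against 125, 169.7 and 189 CPM in IgG. 15C4 1 held the highest and 15C4 3 the lowest value of all libraries, and the fold change of -0.06 (SE 0.68) was 0.44 without 15C4 3. The summed dissociation stress genes were also lowest in 15C4 3, and their part in the Ddit3 value was not tested.

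The targets of ATF4 and CHOP had 4 of 4 members fitted above 0, and 0 passed. Chac1, which degrades glutathione, had 915, 180 and 108 counts in 15C4, against 92, 227 and 0 counts in IgG, or 109, 9.20 and 16.9 CPM in 15C4, against 17.8, 23.5 and 0 CPM in IgG. One library, 15C4 1, stood far above the rest, and the log2 fold change of 1.72 (SE 1.60) was 0.12 without it. Asns, for asparagine synthetase, was at 129, 52.7 and 94.5 CPM in 15C4, against 73.0, 96.0 and 69.1 CPM in IgG (0.29, SE 0.44), and the fold change was 0.07 without 15C4 1 and 0.57 without 15C4 2. Trib3, a pseudokinase that feeds back on ATF4, ranged from 6.57 to 27.4 CPM in 15C4 and from 0 to 28.6 CPM in IgG. Ppp1r15a, for GADD34, which restores translation by dephosphorylating eIF2 alpha, ranged from 11.1 to 29.0 CPM. Both Chac1 and Trib3 had 0 counts in IgG 3.

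The roles varied between libraries in different ways. The 32 members summed to 9561, 11092 and 15225 CPM in 15C4, against 11657, 9976 and 9827 CPM in IgG, with means of 11960 ± 2930 CPM in 15C4, against 10487 ± 1016 CPM in IgG (SD, n = 3 each). The groups overlapped, and the ratio of 1.14 was 0.985 without 15C4 3. The chaperones made up 65.7% of this sum in 15C4 3 and between 53.6% and 61.3% in the other libraries. The sensors made up 0.390% of the sum in 15C4 3, and between 1.09% and 2.86% elsewhere, and the transcription factors 2.73%, and between 4.66% and 7.35% elsewhere. In 15C4 1 the ATF4 and CHOP targets made up 2.99% of the sum, against 0.848% to 1.50% in the other 5 libraries. Of the 31 tested members, 11 had their highest CPM in 15C4 3 and 9 in 15C4 1, where 18.6% and 22.7% of all tested genes had theirs. The counts were 5 in 15C4 2 (13.1% of all genes), 1 in IgG 1 (10.2%), 3 in IgG 2 (18.2%) and 2 in IgG 3 (17.2%).

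**Figure D4:**
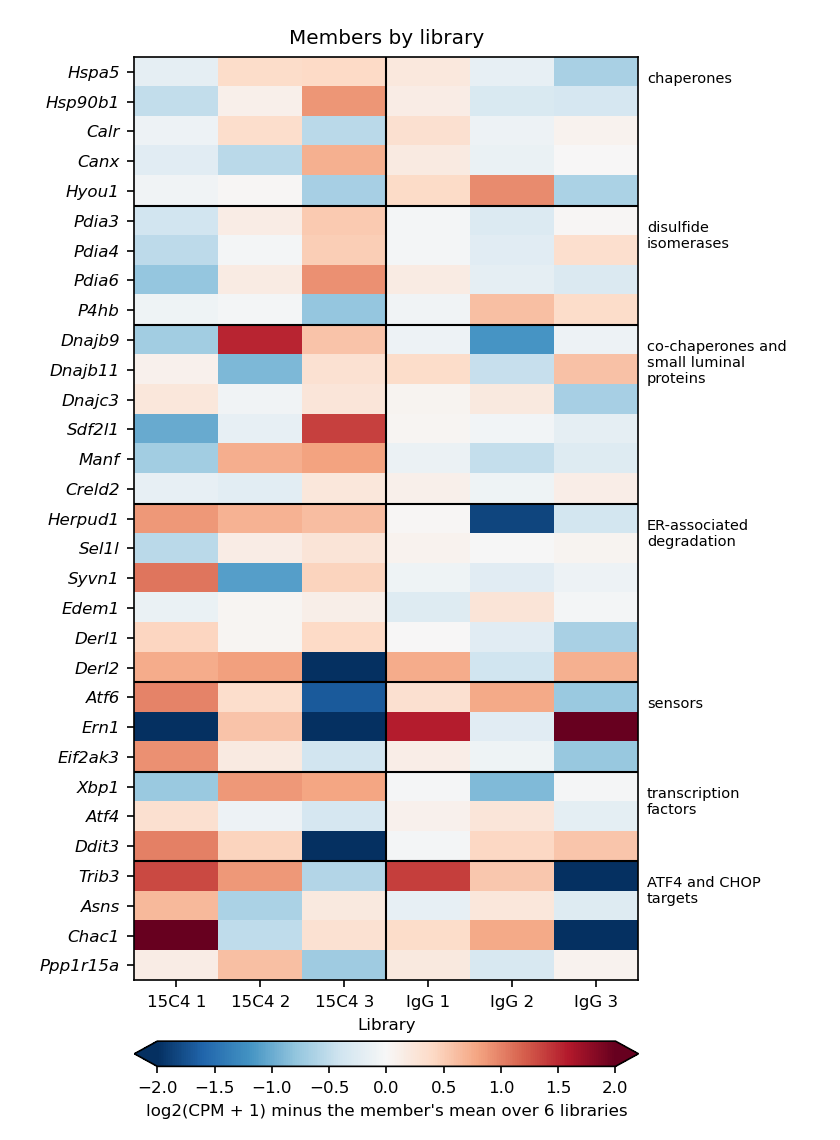
Each member's log2(CPM + 1) minus its mean over the 6 libraries, with members in rows by role, libraries in columns and 15C4 left of IgG. 15C4 3 is high for Hsp90b1, Pdia6 and Sdf2l1 and low for Derl2, Atf6 and Ddit3, and 15C4 1 is low for several isomerases and high for Chac1; colours end at 2 in either direction.

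**Figure D5:**
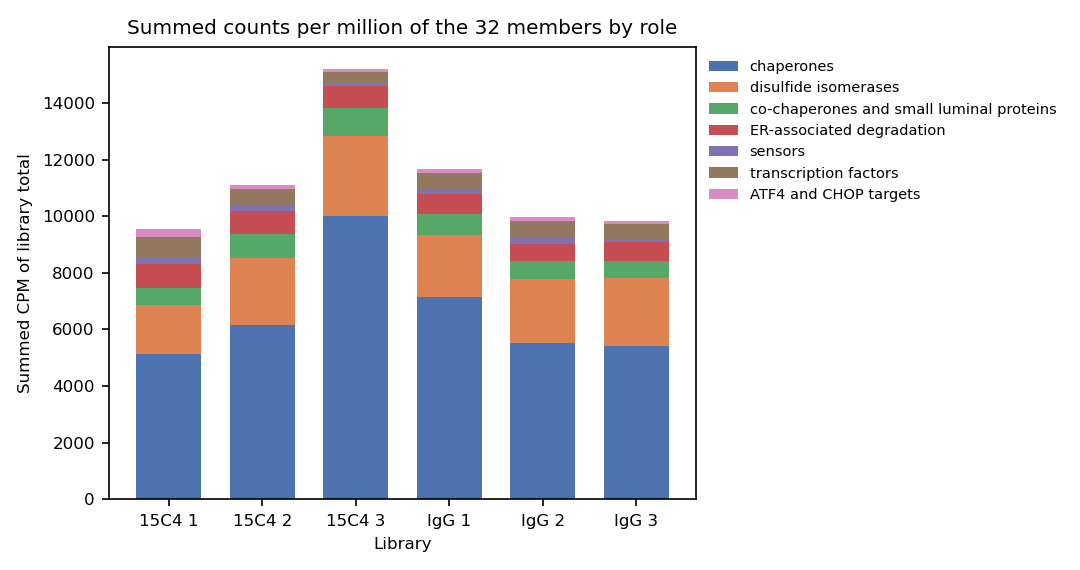
Summed CPM of the 32 members in each library, stacked by role, 15C4 left of IgG. 15C4 3 has the tallest bar, at 15225 CPM, through its chaperones and isomerases, and the other 5 libraries lie between 9561 and 11657 CPM.

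Further genes of the pathway, 97 symbols in 5 lists, had 92 tested genes, of which 0 passed; 53 were fitted above and 39 below 0, with a median log2 fold change of 0.07. Of the 16 tested genes of folding and redox 9 were below 0. This list held the 2 pathway genes with an unadjusted p under 0.05 (edgeR), both lower in 15C4. That is 2 of the 92 tested, against 2.58% of all tested genes in either direction. Groups did not overlap with 15C4 below in 5 of the 92 and with 15C4 above in 0, against 6.64% and 2.88% of all genes. Ero1l, the oxidase that recharges disulfide isomerases and a known hypoxia target, was at 475, 900.5 and 197 CPM in 15C4, against 1135, 1901 and 2412 CPM in IgG. The groups did not overlap, and the log2 fold change was -1.71 (SE 0.54), with an adjusted p of 0.9997 (edgeR). Dnajc10, a reductase that assists degradation, was at 209, 179 and 151 CPM in 15C4, against 302, 234 and 456 CPM in IgG (-0.81, SE 0.35), again without overlap. Of the 16 tested further degradation genes, 11 were above 0, among them Vimp at 77.0, 196 and 723 CPM in 15C4, against 148, 134 and 235 CPM in IgG. Ufd1l was at 29.6, 58.5 and 103 CPM in 15C4, against 44.8, 35.4 and 35.0 CPM in IgG. Both were highest in 15C4 3.

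Of the 19 genes of translocation and secretion, 15 were fitted above 0 (median 0.14). Spcs3, a subunit of the signal peptidase, was at 89.9, 188 and 387 CPM in 15C4, against 107, 135 and 70.9 CPM in IgG, and Sec24d, a COPII coat component, at 33.1, 96.5 and 86.2 CPM in 15C4, against 35.4, 68.7 and 28.8 CPM in IgG. In both, the groups overlapped through 15C4 1. Of the 15 sensor partners, 6 were above and 9 below 0, with Wfs1, which restrains ATF6, at 15.4, 5.11 and 27.2 CPM in 15C4, against 6.96, 6.64 and 3.60 CPM in IgG. Eif2ak1, another kinase of eIF2 alpha, was at 24.2, 9.15 and 19.2 CPM in 15C4, against 24.2, 40.0 and 48.3 CPM in IgG. Of the 26 tested targets of the integrated stress response, 14 were above and 12 below 0. Eprs, a transfer RNA synthetase, was at 504, 272 and 512 CPM in 15C4, against 322, 283 and 296 CPM in IgG. Cth, an enzyme of cysteine synthesis, had 0, 24 and 0 counts in 15C4, against 47, 0 and 58 counts in IgG. In each list the count above 0 describes correlated genes in 6 libraries and was not tested.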

How the data were processed

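The authors deposited whole-number counts per gene symbol for each of the 6 libraries. The submitters' processing notes name STAR 2.5b as well as fastp, DESeq2 and featureCounts, and the builds mm10 and mm9 without roles. Annotation and strand setting: not given in the sources used here. A deposited table of the whole series repeats these counts for 24394 symbols. Per the file headers, this table adds normalised values (a score, counts over a size factor per library), a log2 fold change, whose sign is IgG over 15C4, and a p-value and adjusted p-value by the authors.

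Counts were tested here with edgeR 4.0.16 in R 4.3.3 (TMM; quasi-likelihood test; filterByExpr with a minimum count of 10 and total of 15; treatment as the only term; all 11144 tested genes adjusted together by Benjamini-Hochberg). limma 3.58.1 and DESeq2 1.42.0 were alternatives. CPM are of library totals. SE is the log2 fold change over the square root of the F statistic. Tests were checked on simulated data. The limits given for 0 counts cover counting error only: the libraries were amplified by PCR with no molecular identifiers, so reads do not equal molecules. Gene positions are from GENCODE M21 on GRCm38, and promoter sequences are from RefSeq (GRCm38.p6).

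The members, lists and tests were chosen with earlier results of these data known. Values in every library are given for sensors and factors, for the most counted member and the 2 with the smallest p of each other role, and for any member past the threshold or at 0 in at least 3 libraries; from each further pathway list, the 2 genes with the smallest p are named. Other members printed in full or by range were added after their values were seen. Alternatives were other scalings, filters and tools, each library left out and a replicate block.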

Additional observations from a re-analysis of the deposited data

How the results depend on the processing

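The count of members past the threshold was 0 under every alternative run: RLE scaling, library totals, no filter, a mean count of at least 50, DESeq2, limma-voom, each library left out, the replicate block, and (added after seeing the data) 15C4 3 and IgG 3 left out together. The count over all genes was 0 in these, except 1 without a filter on low counts and 26 with DESeq2; the cause was not tested. On simulated counts DESeq2 called 59 of the genes given no change, edgeR 3 and limma-voom 1. The median log2 fold change of the members stayed above 0 in each, from 0.09 (limma-voom) to 0.37 (without IgG 2), and the count fitted above 0 from 17 to 26 of 31. The ratio of summed CPM lay between 0.985 (without 15C4 3) and 1.25 with 1 library left out. Whether same-numbered libraries are paired is not stated in the labels. Their deviations from their group means correlated at -0.0381, 0.0628 and 0.0992, against -0.103 to 0.0664 for libraries of unlike number. With 3 libraries per group these values cannot settle whether the libraries are paired. With the replicate block the median was 0.20, 22 members were above 0, Atf6 was at -0.15 and Ern1 at -6.51. The median over all genes was -0.15 in that fit, -0.14 with limma-voom and 0.01 as reported.

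Several members changed sign: Atf4 -0.0678 and Sel1l -0.0385 with library totals, and Canx -0.0204 with limma-voom. With 1 library left out the ranges were -0.45 to 0.50 for Atf6, -0.11 to 0.10 for Atf4, -0.59 to 0.44 for Ddit3, -0.38 to 0.43 for Canx, -0.0825 to 0.85 for Pdia6 and -0.14 to 0.33 for Sel1l. Without 15C4 3 and IgG 3 the values were -0.0062 for Atf4, 0.59 for Ddit3, -0.37 for Canx, -0.0441 for Hsp90b1, -0.16 for Pdia6, -0.0054 for Dnajc3 and -0.11 for Sel1l. For the 20 tested members whose libraries are all given by the naming rule, 21 of 280 values over 14 alternatives changed sign and 0 passed the threshold. Over all 31 tested members, 14 changed sign in at least 1 fit with 1 library left out.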

Other observations

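The heat shock genes, chaperones and their regulators outside the ER, which include the mitochondrial pair Hspe1 and Hspd1, had 14 tested genes, of which 0 passed by edgeR, 0 had an unadjusted p under 0.05, 9 were fitted above 0 and 5 below, with a median log2 fold change of 0.16. Hspe1, a mitochondrial chaperonin subunit, was at 1065, 1190.0 and 2490.3 CPM in 15C4, against 1273, 537 and 1161 CPM in IgG (a log2 fold change of 0.80, SE 0.49). Dnaja1, an HSP70 co-chaperone, was at 494, 1001 and 690.3 CPM in 15C4, against 507, 438 and 628 CPM in IgG (0.58, SE 0.37). Hspe1 was highest in 15C4 3, as Hsp90b1 and Pdia6 were, and Dnaja1 in 15C4 2.

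Among targets of the integrated stress response, Slc7a11, a cystine transporter, had 282, 1 and 25 counts in 15C4, against 23, 0 and 2 counts in IgG. As with Chac1, 15C4 1 held most of these counts. Atf3, a stress-induced factor, was at 10.1, 56.7 and 15.8 CPM in 15C4, against 41.3, 62.5 and 21.5 CPM in IgG. Both genes were chosen after their values were seen.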
